A study of Homo sapiens with 6 samples.

Results

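The genes described here encode 10 inflammatory cytokines and chemokines of the human triple negative breast cancer line MDA-MB-231. They are IL1A, IL1B, IL6, IL11, LIF, CSF2, CXCL1, CXCL2, CXCL3 and CXCL8, taken by symbol from the 17646 genes listed for each library. RNA was sequenced 48 h after transfection with an siRNA against USP32, a ubiquitin-specific protease (siUSP32), or with a control siRNA (siControl), with 3 libraries in each group. Both groups were transfected cultures of the same line, 1 siRNA condition was used against USP32, and its sequence was not among the labels. Nothing in the labels shows whether the 3 libraries came from separate cultures, so the p-values measure the spread between libraries, which may be technical. The study's title concerns YAP protein, and the design asks which transcripts differ when USP32 is depleted. All 10 genes were listed, and all 10 passed the filter of a mean of at least 1 FPKM (fragments mapped to a gene, divided by its transcript length and by the library's mapped total) that left 12003 tested genes.

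Cytokines are secreted proteins by which cells signal to their neighbours. Most carry a signal peptide, a short hydrophobic stretch at the start of the protein that directs it into the endoplasmic reticulum and is then removed. Interleukin-1 alpha and beta (IL1A, IL1B) lack this stretch, are made in the cytosol, and leave the cell by other routes. Both act on the receptor formed by IL1R1 and IL1RAP, which activates NF-kB, a transcription factor that in turn induces IL6, CSF2 and the neutrophil-attracting chemokines CXCL1, CXCL2, CXCL3 and CXCL8. IL6, IL11 and LIF share the signalling receptor subunit gp130, the product of IL6ST. MDA-MB-231 cells are known to secrete several of these factors without added stimulus.

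A signal peptide is encoded at the start of the coding sequence. The first 25 codons of 7 of the genes follow, from GENCODE 29 transcripts, written 5′ to 3′. Capitals mark codons with T as the middle base, which encode the hydrophobic residues phenylalanine, leucine, isoleucine, methionine and valine.
IL1A: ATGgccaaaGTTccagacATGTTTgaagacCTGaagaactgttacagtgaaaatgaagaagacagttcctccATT
IL1B: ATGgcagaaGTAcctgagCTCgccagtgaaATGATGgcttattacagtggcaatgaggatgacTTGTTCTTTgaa
CSF2: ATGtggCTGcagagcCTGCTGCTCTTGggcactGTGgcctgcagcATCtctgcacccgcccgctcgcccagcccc
IL6: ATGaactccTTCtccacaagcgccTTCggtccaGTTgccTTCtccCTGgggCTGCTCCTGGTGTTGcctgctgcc
LIF: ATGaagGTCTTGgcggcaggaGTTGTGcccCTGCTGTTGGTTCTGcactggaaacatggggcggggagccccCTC
CXCL8: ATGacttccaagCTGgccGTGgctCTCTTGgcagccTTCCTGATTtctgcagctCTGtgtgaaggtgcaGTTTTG
CXCL1: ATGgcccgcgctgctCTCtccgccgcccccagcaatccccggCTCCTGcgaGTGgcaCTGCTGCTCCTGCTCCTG

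Hydrophobic codons occur in all 7, IL1B included, which has adjacent ones near the end of the stretch shown, so the sets were told apart by a score over a window and not by such runs. Scored by the Kyte-Doolittle scale, on which hydrophobic residues are positive, the most hydrophobic 11 residues within the first 35 averaged 0.036 in IL1A and 0.427 in IL1B. The 8 other proteins scored between 2.39 (CSF2) and 3.33 (CXCL1, CXCL2 and CXCL3). With a threshold of 1.6, these 8 had an N-terminal hydrophobic window and IL1A and IL1B had none. Such a window was present in 22.7% of the 11959 tested genes with a coding sequence.

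The knockdown was seen in each siUSP32 library. USP32 had 2, 1.88 and 2.01 FPKM in siUSP32 libraries, against 7.50, 7.48 and 8.32 FPKM in siControl libraries, so its mean was 3.96-fold lower. The FPKM of all listed genes summed to between 855573 and 948641 in siUSP32 and between 686376 and 694831 in siControl libraries, so small rises depend on how libraries are scaled. The depth was not given. In cultured libraries of this kind, fewer cells making an RNA and less RNA per cell cannot be told apart.

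In siUSP32 libraries 8 of the 10 genes rose, LIF fell, and CXCL2 did not pass the test (limma, Benjamini-Hochberg adjusted p under 0.05 over all tested genes). Over all tested genes 33.3% were called higher and 41.3% lower. The groups did not overlap for 9 of the 10 genes, which was also so for 77.8% of all tested genes. The median log2 difference of the 10 genes was 0.57, against -0.06 over all tested genes. Together they summed to 2668 to 2758 FPKM in siUSP32 libraries and to 1430 to 1536 FPKM in siControl libraries. Differences are given as siUSP32 minus siControl on the scale log2(FPKM + 1), and folds are ratios of mean FPKM. For single genes a 2-sided exact permutation test, which cannot go below p = 0.1 with 3 libraries a side, reached that value for each of them but CXCL2 (p = 0.2).

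**Figure D1:**
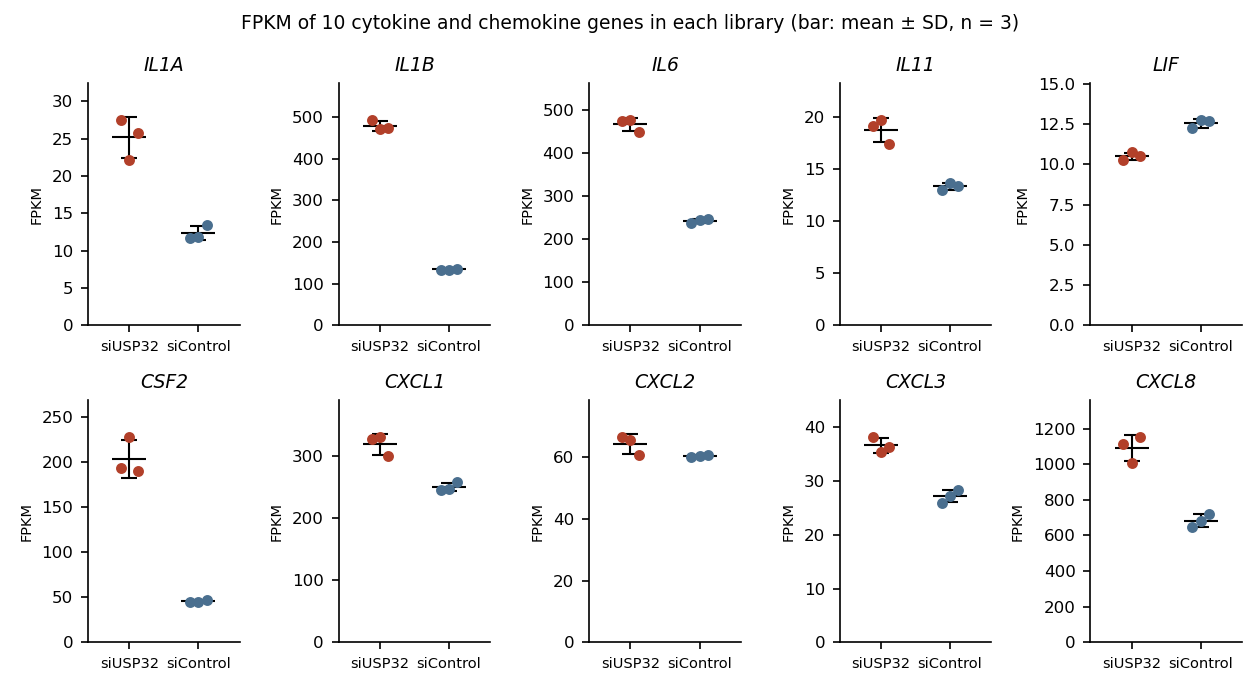
FPKM (linear axes from 0) of each of the 10 genes in every library, with siUSP32 in red on the left and siControl in blue on the right of each panel. Black bars give the mean ± SD of 3 libraries. CSF2 and IL1B show the widest separation, CXCL2 overlaps between the groups, and LIF is the gene with lower values in siUSP32.

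The leaderless interleukin-1 genes both rose. IL1B (Entrez 3553, GRCh38 chromosome 2, 112829751 to 112836903, minus strand) encodes the precursor that caspase-1 cleaves to the active cytokine. It had 493, 470.3 and 473 FPKM in siUSP32 libraries, against 134, 133 and 135 FPKM in siControl libraries. The siUSP32 values lay close together and far above every siControl value. This was a 3.58-fold rise, with a log2 difference of 1.83 ± 0.04 (SE, limma adjusted p = 3.16e-09), and 25 tested genes had a larger one. IL1A (Entrez 3552, chromosome 2, 112773915 to 112784590, minus strand) encodes the alpha form, which is active as a precursor and acts as an alarm signal when cells are damaged. It had 27.5, 22.2 and 25.8 FPKM in siUSP32 libraries, against 11.7, 11.9 and 13.4 FPKM in siControl libraries. The lowest siUSP32 library, replicate 2, was still above the highest siControl library. IL1A rose 2.04-fold, with a log2 difference of 0.97 ± 0.09 (SE, limma adjusted p = 8.79e-06). IL1B rose by more than IL1A, and the FPKM ratio of IL1B to IL1A was 17.9, 21.2 and 18.4 in siUSP32 libraries, against 11.4, 11.2 and 10.1 in siControl libraries.

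CSF2 (Entrez 1437, chromosome 5, 132073790 to 132076170, plus strand), which encodes the growth factor GM-CSF for granulocytes and macrophages, had the largest rise of the 10. It had 193, 228 and 190.4 FPKM in siUSP32 libraries, against 44.8, 44.7 and 47.2 FPKM in siControl libraries. Each siUSP32 library was above 4 times the siControl values, and replicate 2 was the highest. CSF2 rose 4.48-fold (log2 difference 2.13 ± 0.07, SE, limma adjusted p = 1.70e-08), and 15 of the 12003 tested genes had a larger difference.

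Among the cytokines that signal through gp130, IL6 and IL11 rose and LIF fell. IL6 (Entrez 3569, chromosome 7, 22725884 to 22732002, plus strand), an inducer of the acute phase response, had 473, 477 and 449 FPKM in siUSP32 libraries, against 236, 243 and 247 FPKM in siControl libraries. The groups were well apart, a 1.93-fold rise (log2 difference 0.94 ± 0.05, SE, limma adjusted p = 1.95e-07). IL11 (Entrez 3589, chromosome 19, 55364389 to 55370463, minus strand), which acts on stromal and blood-forming cells, had 19.1, 19.7 and 17.4 FPKM in siUSP32 libraries, against 12.98, 13.6 and 13.4 FPKM in siControl libraries. Its groups did not overlap, and it rose 1.4-fold (log2 difference 0.46 ± 0.06, SE, limma adjusted p = 1.35e-04), a call lost with TPM, the rescaling to equal library sums described further on. LIF (Entrez 3976, chromosome 22, 30240447 to 30246851, minus strand), the leukemia inhibitory factor, had 10.3, 10.8 and 10.5 FPKM in siUSP32 libraries, against 12.2, 12.8 and 12.7 FPKM in siControl libraries. Every siUSP32 value was below every siControl value, but the fall was small, 1.19-fold (log2 difference -0.24 ± 0.06, SE, limma adjusted p = 0.00394), and did not pass with median-ratio scaling (-0.11), quantile normalization (-0.02) or the length correction (0.12). Exons of IL6 overlap those of STEAP1B and of an antisense RNA, and exons of LIF overlap antisense RNAs. The handling of strand is not given, so reads of these pairs may not be separated.

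Of the chemokines that recruit neutrophils through CXCR2, CXCL8 rose most. CXCL8 (Entrez 3576, chromosome 4, 73740506 to 73743716, plus strand), which encodes interleukin-8, had 1110.4, 1008 and 1151 FPKM in siUSP32 libraries, against 647, 682 and 720.2 FPKM in siControl libraries. The lowest siUSP32 library lay above the highest siControl library, a 1.6-fold rise (log2 difference 0.67 ± 0.07, SE, limma adjusted p = 1.62e-05) that did not pass after quantile normalization. CXCL1 (Entrez 2919, chromosome 4, 73869393 to 73871242, plus strand) had 327, 330.4 and 299.8 FPKM in siUSP32 libraries, against 246, 246 and 258 FPKM in siControl libraries. Its groups did not overlap, and it rose 1.28-fold (log2 difference 0.35 ± 0.05, SE, limma adjusted p = 3.01e-04), a call lost with TPM, quantile normalization and the length correction. CXCL3 (Entrez 2921, chromosome 4, 74036589 to 74038807, minus strand) had 38.1, 35.4 and 36.2 FPKM in siUSP32 libraries, against 25.9, 27.2 and 28.2 FPKM in siControl libraries. It rose 1.35-fold without overlap (log2 difference 0.42 ± 0.06, SE, limma adjusted p = 1.11e-04), a call lost with TPM (0.06) and the length correction. CXCL2 (Entrez 2920, chromosome 4, 74097035 to 74099293, minus strand) had 66.6, 65.7 and 60.8 FPKM in siUSP32 libraries, against 60.2, 60.3 and 60.8 FPKM in siControl libraries. Replicate 3 of siUSP32 was at the same value as replicate 3 of siControl, so the groups met, and the difference of 0.09 ± 0.05 did not pass (SE, limma adjusted p = 0.146). Without siUSP32 replicate 3 it was 0.13 and passed (limma adjusted p = 0.0354), as it did with median-ratio scaling (0.23). The transcripts of CXCL1 and CXCL2 were 91.2% identical over 1070 aligned bases, those of CXCL1 and CXCL3 85.6% over 925, and those of CXCL2 and CXCL3 85.1% over 1014. Their values are therefore uncertain gene by gene where reads match more than 1 of them.

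The order of the levels changed between the groups. In siUSP32 libraries CXCL8 was highest, followed by IL1B and IL6, whose values overlapped, then CXCL1, CSF2, CXCL2, CXCL3, IL1A, IL11 and LIF. In siControl libraries CXCL8 was followed by CXCL1 and IL6, whose values overlapped, then IL1B, CXCL2, CSF2 and CXCL3. IL11, LIF and IL1A were at the lower end there, with IL1A overlapping both LIF and IL11. CSF2 thus stood above CXCL2 in siUSP32 and below it in siControl. IL1B made up 17.4% to 17.9% of the summed FPKM of the 10 genes in siUSP32 libraries, against 8.81% to 9.34% in siControl libraries. The share of CXCL8 was 37.8% to 42.4% in siUSP32 and 45.2% to 46.9% in siControl libraries.

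The 2 leaderless genes rose by more, on average, than the 8 with a signal peptide, but the sets were not separate. The mean log2 difference was 1.40 for IL1A and IL1B and 0.60 for the 8 others, whose differences ran from -0.24 (LIF) to 2.13 (CSF2) with a median of 0.44. CSF2 was above IL1B, and IL6 was within 0.03 of IL1A. Per library, the mean log2(FPKM + 1) of IL1A and IL1B minus that of the 8 others was 0.12, -0.07 and 0.11 in siUSP32, against -0.74, -0.78 and -0.72 in siControl. The groups were thus at 0.05 ± 0.11 in siUSP32 and -0.75 ± 0.03 in siControl (SD, n = 3 each), a difference of 0.80 that is given as a description, since members of a set are not replicates. Within single libraries, the FPKM ratio of IL1B to IL6 was 1.04, 0.987 and 1.05 in siUSP32 and 0.565, 0.545 and 0.549 in siControl. The ratio of IL1A to IL6 was 0.0581, 0.0466 and 0.0574 in siUSP32 and 0.0496, 0.0488 and 0.0544 in siControl, and overlapped. Against IL6, then, IL1B was relatively higher in every siUSP32 library, while IL1A was not in each.

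Genes whose protein begins with a hydrophobic window were mostly lower in these libraries, and the cytokines with a signal peptide did not follow that class. Of 2713 tested genes with an N-terminal window, 577 (21.3%) were higher and 1683 (62.0%) lower, with a median log2 difference of -0.47. Of 9246 genes without one, 3417 (37.0%) were higher and 3255 (35.2%) lower, with a median of 0.01. Within the class with a window, only 1 gene had a larger difference than CSF2, and IL6 ranked 40 and CXCL8 140 of the 2713 from the top. LIF, the member that fell, ranked 1073, still above the median of that class. Among the 9246 genes without a window, IL1B ranked 22 and IL1A 230.

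Both kinds of gene divided by the size of the protein, a split chosen after the values were seen. Without any hydrophobic window, 65.0% of the 1668 genes for proteins of at most 250 residues were higher and 12.4% lower (median log2 difference 0.40), against 33.6% and 35.4% of the 5616 for longer proteins (median -0.02). All 8 cytokines with a signal peptide encode proteins of 99 to 212 residues with no second hydrophobic segment (19 residues averaging at least 1.6). Among the 376 genes with an N-terminal window alone and at most 250 residues, 53.5% were higher and 25.5% lower, with a median log2 difference of 0.25. Among the 1049 with an N-terminal window alone and over 250 residues, 21.4% were higher and 60.2% lower, with a median of -0.41, and with a second segment (1288 genes) the median was -0.76. In the small class CSF2 ranked first, IL6 24, CXCL8 75, IL11 129, CXCL3 137, CXCL1 158, CXCL2 226 and LIF 284 of 376. After correction for transcript length the ranks among the 376 were 2 for CSF2, 31 for IL6, 62 for CXCL8, 70 for IL11, 175 for LIF, 210 for CXCL3, 223 for CXCL1 and 275 for CXCL2. CSF2 and IL6 were near the top of this class both ways, and IL11 stood well above CXCL1 and CXCL3 only after the correction. Transcripts of the small class were shorter, with a median of 1522 bases against 3137 for those over 250 residues. Corrected for transcript length, the median log2 difference was 0.08 in the small class and -0.17 in that over 250 residues, both below the 0.11 of all genes.

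**Figure D2:**
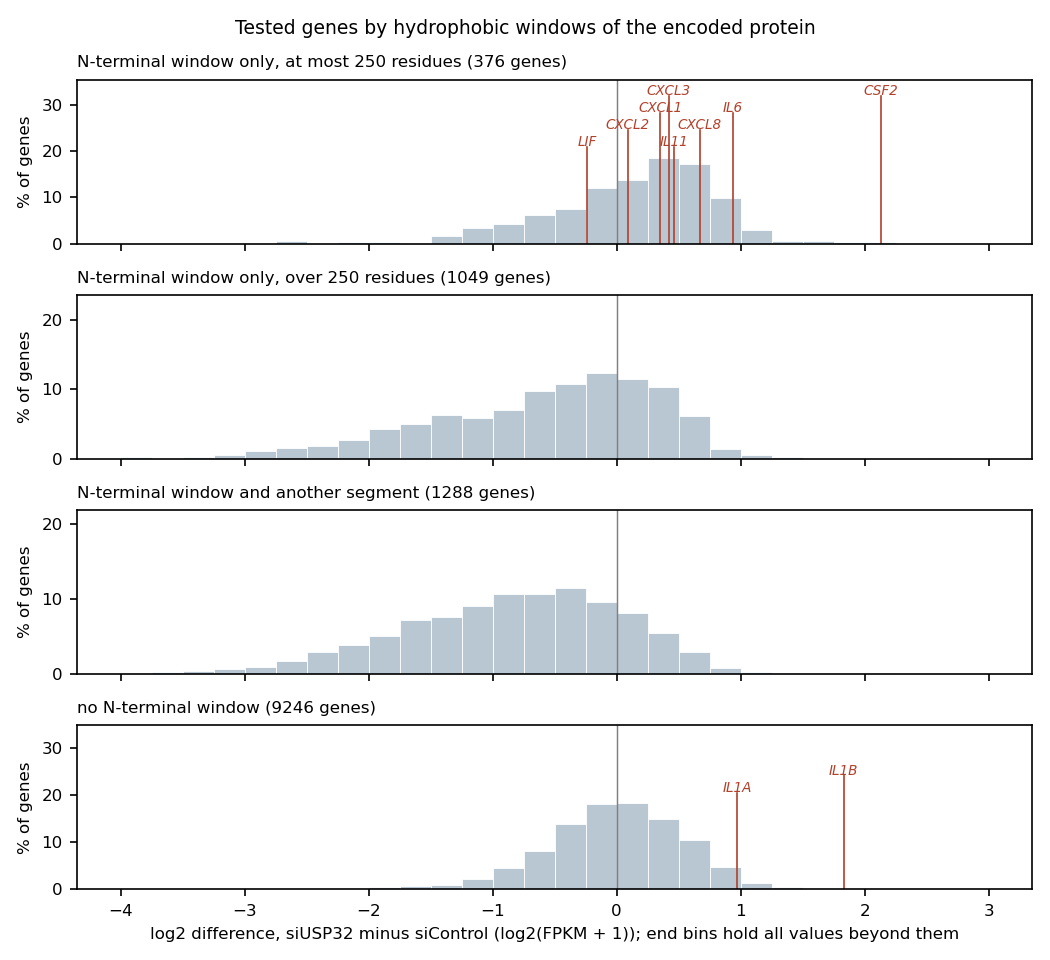
Share of tested genes (vertical axis, percent of the class per bin) by log2 difference of siUSP32 minus siControl (horizontal axis), in 4 classes set by hydrophobic windows of the protein, with red lines at the 10 cytokine genes. The small proteins with an N-terminal window centre on 0.25 and hold CSF2 far to the right, while IL1A and IL1B stand at the upper end of genes without a window.

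The size of the smaller rises depended on scaling. When each library was rescaled to the same sum (TPM), the median of all tested genes moved to -0.39, 14.3% were called higher and 62.1% lower, and of the 10 genes 5 rose (IL1A, IL1B, CSF2, IL6 and CXCL8) and 2 fell (LIF and CXCL2). Relative to that median, CSF2 stood at 2.16, IL1B at 1.85, IL1A at 1.02, IL6 at 0.96 and CXCL8 at 0.69 by TPM. A correction of every library for transcript length was also made, after which 44.6% of genes were called higher and 28.5% lower with a median of 0.11. With that correction IL1B stood at 1.63, CSF2 at 1.62, IL1A at 0.93, IL6 at 0.70, CXCL8 at 0.50 and IL11 at 0.46, all past the test. CSF2 has the shortest transcript of the 10, with 787 bases, and no longer exceeded IL1B. CXCL1 (-0.07), CXCL3 (-0.01) and LIF (0.12) did not pass with the length correction, and CXCL2 fell (-0.28, limma adjusted p = 5.01e-04). After quantile normalization, with 43.8% of genes higher, 30.0% lower and a median of 0.10, CXCL8 was at 0.04 and CXCL1 at 0.01 and neither passed, while IL11 (0.61) and CXCL3 (0.42) did. CSF2, IL1B, IL1A and IL6 passed the test as rises under each of these scalings.

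**Figure D3:**
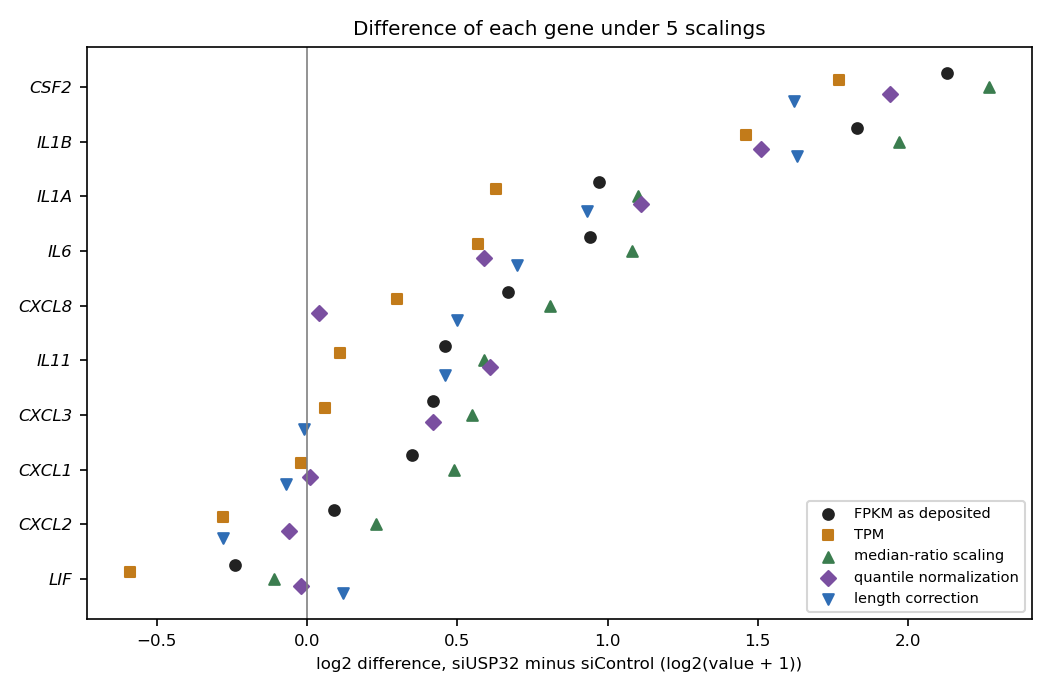
Log2 difference of siUSP32 minus siControl (horizontal axis, zero marked) for each of the 10 genes (rows) under 5 scalings, shown by symbol and colour. CSF2, IL1B, IL1A and IL6 lie right of zero under every scaling shown, while CXCL1, CXCL2, CXCL3 and LIF have values on both sides.

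Most of the tested receptors for these cytokines fell. Of 14 receptor and antagonist genes 13 were listed and 9 tested, of which 7 fell and 2 rose, with a median log2 difference of -0.64 (length-corrected -0.28, with 5 lower and 2 higher). IL6R averaged 0.877 FPKM in siUSP32 and IL1RN 0.937 FPKM in siControl, so each passed the filter only through its higher group. Their directions therefore add little to these counts. Among the 1288 tested genes with an N-terminal window and another hydrophobic segment, the layout of many membrane receptors, 74.2% fell and the median was -0.76, so the receptors' count and median are not particular to them. IL6ST, which encodes gp130, had 9.42, 8.02 and 10.6 FPKM in siUSP32 libraries, against 76.2, 76.7 and 80.3 FPKM in siControl libraries. Its groups were far apart, an 8.33-fold fall (log2 difference -2.94 ± 0.09, SE, limma adjusted p = 7.90e-09). Corrected for length, IL6ST stood at -2.31. LIFR, which pairs with gp130 to bind LIF, fell 6.90-fold, to 1.05 ± 0.162 FPKM in siUSP32 against 7.22 ± 0.387 FPKM in siControl (SD, n = 3 each). IL1RAP, the accessory chain of the interleukin-1 receptor, fell 4.72-fold, to 4.15 ± 0.384 FPKM in siUSP32 against 19.6 ± 1.55 FPKM in siControl. With the length correction the log2 difference was -1.37 for LIFR and -1.55 for IL1RAP, against -2.01 and -2.0 without it.

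The ligand-binding chains were lower in level. IL1R1, which binds both forms of interleukin-1, had 1.1, 1.11 and 1.17 FPKM in siUSP32 libraries, against 2.09, 2.54 and 2.13 FPKM in siControl libraries (log2 difference -0.61, limma adjusted p = 8.33e-05), and -0.14 with the length correction, where it did not pass. IL6R fell to 0.877 ± 0.206 FPKM in siUSP32 against 2.25 ± 0.202 FPKM in siControl, and CSF2RA, the GM-CSF receptor alpha chain, to 1.06 ± 0.137 against 2.19 ± 0.153 FPKM. IL11RA was at 3.16 ± 0.558 FPKM in siUSP32 and 4.26 ± 0.516 FPKM in siControl (log2 difference -0.34, limma adjusted p = 0.0182), a fall that did not pass with the length correction (-0.17), median-ratio scaling (-0.23) or quantile normalization (0.05). The genes that rose were inhibitors. SIGIRR, an inhibitory member of the interleukin-1 receptor family, was at 10.6 ± 2.41 FPKM in siUSP32 and 6.48 ± 0.587 FPKM in siControl, and IL1RN, the receptor antagonist, at 1.76 ± 0.172 and 0.937 ± 0.388 FPKM (log2 differences 0.61 and 0.53). Both rises were lost with TPM (0.29 and 0.36). CXCR2, the shared receptor of the 4 chemokines, was at most 0.08 FPKM in any library and was not tested. IL1R2, CSF2RB and ACKR1 stayed below 0.33 FPKM.

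**Figure D4:**
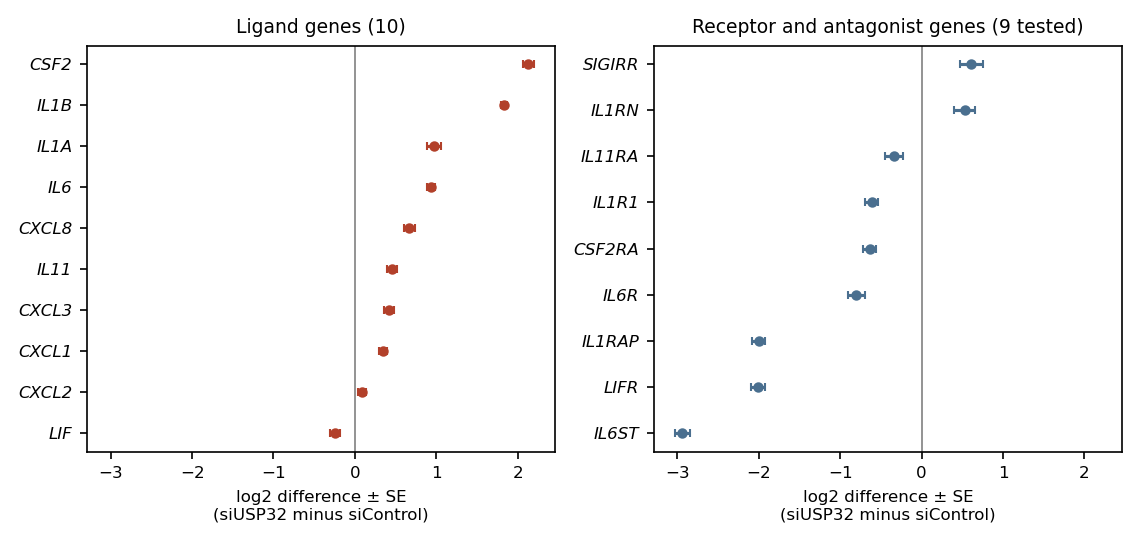
Log2 difference of siUSP32 minus siControl with its SE (horizontal axes) for the 10 ligand genes on the left and the 9 tested receptor and antagonist genes on the right. The ligands run from -0.24 (LIF) to 2.13 (CSF2), and the receptors from -2.94 (IL6ST) to 0.61 (SIGIRR).

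Other leaderless cytokines mostly rose as well. So did genes for proteins of at most 250 residues without any hydrophobic window (65.0% higher and 12.4% lower, median 0.40). Of 8 tested cytokine and growth factor genes without a signal peptide 6 rose and 1 fell (median 0.39), and 3 rose and 1 fell by TPM. Those with the smallest adjusted p were HDGF, 509.8 FPKM in siUSP32 and 359 FPKM in siControl, and HMGB1, a nuclear protein released as an alarm signal, 254 and 187 FPKM. HMGB1 did not pass by TPM (log2 difference 0.07). IL18, a leaderless relative of IL1B that is also cleaved by caspase-1, fell to 91.3 ± 6.09 FPKM in siUSP32 against 120.0 ± 3.19 FPKM in siControl. Its log2 difference of -0.39 (limma adjusted p = 2.18e-04) was -0.79 with the length correction, so lack of a signal peptide did not go with a rise in each gene. Of 14 tested leaderless secreted proteins of other kinds 11 rose and none fell, also at an unadjusted p under 0.05 by limma (0 genes; median 0.44). With the length correction 8 rose and 4 fell, and by TPM 6 rose and 3 fell. Those that rose under each of these scalings included ANXA1 (1.61-fold) and PRDX1 (1.64-fold). The medians of both lists were close to the 0.40 of small proteins without a hydrophobic window, so such rises are not particular to these genes. Protein sizes within the lists were not compared.

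Chemokines other than the 4 were lower for the most part. Of 11 tested, 3 rose and 7 fell, with a median log2 difference of -0.37. By TPM 2 rose and 7 fell (median -0.72), and with the length correction 2 rose and 6 fell (median -0.7). After quantile normalization 4 rose and 4 fell. Among all 2713 tested genes with an N-terminal window 62.0% fell (median -0.47). Among the 376 of at most 250 residues with that window alone 25.5% fell (median 0.25). The count of falls is near the first share and above the second, and the protein sizes of the 11 were not compared. CCL2, which attracts monocytes, rose 1.59-fold, to 752 ± 38.5 FPKM in siUSP32 against 472 ± 9.28 FPKM in siControl, and CCL5 rose 2.02-fold. CXCL16, a chemokine made with a transmembrane anchor, fell 4.16-fold, to 5.17 ± 0.156 FPKM in siUSP32 against 21.5 ± 0.651 FPKM in siControl. CXCL5, a CXCR2 ligand like the 4 chemokines, fell 2.13-fold, to 40.3 ± 6.59 FPKM in siUSP32 against 85.9 ± 1.83 FPKM in siControl. CXCL5 also fell by TPM, at -1.45 on the log2 scale, and after correction for length, at -1.02. Of 26 other cytokine and growth factor genes 14 rose and 10 fell (median 0.22), and 9 rose and 11 fell by TPM. Over all tested genes 33.3% rose and 41.3% fell, and 14.3% and 62.1% by TPM. GDF15, a stress-induced cytokine, rose 8.46-fold and AREG, an EGF receptor ligand, 2.38-fold, while CSF1, the macrophage growth factor, fell 4.54-fold and TGFB2 5.14-fold. CSF1 and CSF2 thus differed in direction, at 12.6 ± 0.834 FPKM in siUSP32 and 57.4 ± 0.554 FPKM in siControl for CSF1.

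Regulators of cytokine genes were measured beside them. Over all tested genes 33.3% were higher and 41.3% lower. By TPM these shares were 14.3% and 62.1%, and with the length correction 44.6% and 28.5%. Of 35 tested transcription factors and NF-kB feedback genes 20 rose and 8 fell (median 0.27, length-corrected 0.33, and 13 higher and 16 lower by TPM). The stress regulators DDIT3 (8.53-fold) and ATF4 (3.56-fold) rose with the smallest adjusted p. Several genes of NF-kB and its inhibitors rose. NFKBIB (log2 difference 1.24), NFKBIE (0.72) and NFKBIA (0.34), which encode inhibitors that hold NF-kB in the cytosol, TNIP1 (0.70), a partner of A20, and the NF-kB subunit genes NFKB2 (0.70) and RELB (0.53) passed as rises. NFKBIA did not pass by TPM (-0.02) or with the length correction (0.11), and RELB did not pass by TPM (0.18). The subunit gene REL fell (-0.35) but was at 0.29 with the length correction. Of the other subunit genes, RELA rose by 0.22 but fell by TPM (-0.14), and NFKB1 was not called (0.20, limma adjusted p = 0.124). NFKBIZ (-0.23) and BCL3 (-0.15), of the same list, were not called and fell by TPM (-0.57 and -0.52). TNFAIP3, an NF-kB target that encodes the feedback inhibitor A20, fell 1.53-fold, to 20.8 ± 1.5 FPKM in siUSP32 against 31.9 ± 0.962 FPKM in siControl, and FOSL2, an AP-1 subunit, fell 2.09-fold. Other AP-1 subunit genes rose, namely FOSL1 (log2 difference 0.92, 248 FPKM in siUSP32 and 130.2 FPKM in siControl), JUN (0.57), FOSB (0.50) and JUND (0.27). JUND did not pass by TPM (-0.09). FOS (-0.06) and JUNB (0.03) were not called, and both fell by TPM (-0.40 and -0.34). Of 26 signalling genes downstream of the receptors 6 rose and 14 fell (median -0.20, 0.10 with 11 higher and 6 lower after the length correction, and 2 higher and 22 lower by TPM). IRAK2, a kinase of the interleukin-1 receptor complex, rose 2.03-fold and IKBKG, the NF-kB kinase subunit NEMO, 1.88-fold, while MAP3K7, the kinase TAK1, fell 1.72-fold and TAB3, its partner, 1.92-fold.

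Of 23 genes for decay of such mRNAs, or for its control in either direction, 5 rose and 11 fell (median -0.18). After the length correction 11 were higher and 7 lower (median 0.09). By TPM 0 were higher and 20 lower, with 1 higher at an unadjusted limma p under 0.05. Over all tested genes 33.3% were higher and 41.3% lower. These shares were 44.6% and 28.5% after the length correction, and 14.3% and 62.1% by TPM. ZFP36L2, which binds AU-rich elements and promotes decay, fell 1.84-fold and RC3H2, a relative of roquin, 2.04-fold. AUH and YBX1 rose 1.45-fold and 1.31-fold, and neither passed with TPM (log2 differences 0.16 and 0.01), while YBX1 fell after quantile normalization (-0.19). Of 19 genes for cleavage and release of interleukin-1, 10 rose and 3 fell (median 0.26), and 4 rose and 9 fell by TPM. CASP4, an inflammatory caspase, rose 1.48-fold and HAX1, a protein reported to bind IL1A, rose 2.03-fold. The lysosomal proteases CTSB and CTSC fell 2.81-fold and 3.29-fold. Of 20 genes for signal peptide recognition, translocation and cleavage 9 rose and 6 fell (median 0.08, 0.01 with the length correction), and 4 rose and 12 fell by TPM. SEC61B (1.88-fold) and SRP19 (1.97-fold) rose, and SEC61A1, the channel subunit, fell 3.03-fold and SSR1 3.54-fold.

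The promoters of the 4 chemokines and IL6 share a match to the NF-kB binding sequence. RefSeq promoters, 250 bases before to 50 after the transcription start on GRCh38.p14, were found for 9 of the 10 genes, LIF being the other. The motif GGANTTTCC, searched on both strands, was present in 5 of the 9 and in 1.64% of 35116 promoters. Each match is shown in capitals with 10 bases on either side, in the direction of the gene.
CXCL8, chr4:73740468-73740496, plus strand: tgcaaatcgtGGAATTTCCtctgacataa
CXCL1, chr4:73869305-73869333, plus strand: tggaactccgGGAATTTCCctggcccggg
CXCL2, chr4:74099254-74099282, minus strand: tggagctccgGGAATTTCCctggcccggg
CXCL3, chr4:74038749-74038777, minus strand: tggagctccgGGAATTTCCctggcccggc
IL6, chr7:22727118-22727146, plus strand: atcaaatgtgGGATTTTCCcatgagtctc

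The match began 91 bases before the start in CXCL8, 78 in CXCL1 and CXCL3, 77 in CXCL2 and 72 in IL6. The 4 chemokines have the same 9 letters, and the flanks of CXCL1, CXCL2 and CXCL3 are nearly the same. The AP-1 motif TGANTCA, the same on both strands, was found in IL1A, IL11 and CXCL8 and in 7.71% of all promoters. Both motifs are shown in capitals in 100 bases of the CXCL8 promoter, chr4:73740419-73740518, plus strand, from 150 to 51 bases before the start.
CXCL8 promoter: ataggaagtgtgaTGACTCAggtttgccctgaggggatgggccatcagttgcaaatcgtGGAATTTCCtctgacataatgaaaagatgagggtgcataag

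The C/EBP motif TTGCNNAA was found in IL1B, IL6 and CXCL2, and in 10.5% of all promoters. The composite motif TGATGNAA, bound by ATF4 with C/EBP factors, and the TEAD motif GGAATG, through which YAP acts, had no match in the 9 windows. They were present in 3.62% and 14.0% of all promoters. These are letters in the sequence and not measurements of binding.

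AU-rich elements, which shorten the life of many cytokine mRNAs, were read from the 3′ UTRs. The nonamer TTATTTATT was present in 8 of the 10 genes and in 8.36% of 11959 tested genes, with none in IL1A and IL6. IL11 held 6 copies, CXCL2 held 5, CSF2 and CXCL1 held 3, IL1B and LIF held 2 and CXCL3 and CXCL8 held 1, overlapping copies counted. The shorter motif ATTTA was present in the 3′ UTR of all 10 genes, with 5 copies in IL1A, 6 in IL6 and 6 in IL1B. Its share over all tested genes was not computed. Over the 1000 tested genes with the nonamer 22.2% were higher and 53.7% lower, with a median log2 difference of -0.25. Their transcripts had a median length of 5170 bases, and with the length correction the median was 0.16, against 0.11 for genes without the nonamer.

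The genes with the profile most like each of 3 members over the 6 libraries were found by the Euclidean distance between centred log2(FPKM + 1) values. For IL1B they were SAT1, TPM4 and G0S2, at distances of 0.098, 0.136 and 0.188 and with folds of 3.63, 3.79 and 3.71. For IL1A they were PSPH, CCDC32 and SNAPC1, at 0.111, 0.126 and 0.141, and for CXCL8 they were TXNIP, RPP40 and XPOT, at 0.055, 0.058 and 0.077. With 2 groups of 3 libraries, such likeness reflects little beyond the size of the group difference.

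Markers of other cell types were low for the most part, with LUM, HLA-DRA and CD14 as the highest. Of 21 immune cell markers 18 were listed and 2 were tested. The 18 summed to 10 to 11.1 FPKM in siUSP32 libraries and 20 to 20.9 FPKM in siControl libraries, and most of that was HLA-DRA, at 4.23 FPKM in siUSP32 and 10.6 FPKM in siControl, and CD14, at 4.98 and 7.51 FPKM, which both fell. The pan-leukocyte gene PTPRC averaged 0.00667 FPKM in siUSP32 and was listed at 0 in each siControl library. None of the 18 was at 0 in all 6 libraries. Of 15 stromal and endothelial markers 14 were listed, summing to 10.9 to 11.6 FPKM in siUSP32 and 41.7 to 43.4 FPKM in siControl libraries, and the 4 tested fell. Most of that sum was LUM, a proteoglycan gene of connective tissue, at 7.75 ± 0.443 FPKM in siUSP32 and 32 ± 0.684 FPKM in siControl, which is above the median of tested genes in siControl libraries (11.9 to 11.99 FPKM). TEK was at 0.387 FPKM in siUSP32 and 2.06 FPKM in siControl, and passed the filter only through siControl. The part of these markers in the cytokine differences was not tested. The line's own markers were present, with VIM at 1658 ± 49.5 FPKM in siUSP32 and 1085 ± 11 FPKM in siControl, CD44 at 135 and 425 FPKM, and AXL at 16.7 and 64.5 FPKM. ESR1, the estrogen receptor gene, stayed at 0.207 and 0.5 FPKM.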

How the data were processed

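The authors deposited FPKM values with 2 decimals, 1 table per library, per the file headers. The submitters' processing notes name the build GRCh38.p13. The aligner, counting tool, annotation and strand setting were not given in the sources used here. FPKM divides by transcript length and mapped total, so no count model was used. From these values, log2(FPKM + 1) of 12003 genes with a mean of at least 1 FPKM was compared with limma 3.58.1 (R 4.3.3, mean-variance trend, 2-sided, Benjamini-Hochberg adjustment). The filter used the mean of all 6 libraries, so a gene below it in 1 group could pass through the other, where it was higher. The fit was also run on simulated independent values with few changed genes and no scaling difference. These libraries differ in both respects, so that run does not bear on the calls given here. Library depth is unknown, so counting intervals were not computed.

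Transcript length, coding sequence and 3′ UTR came from the GENCODE 29 principal transcript with the longest coding sequence (11959 tested genes), which need not be the authors'. The length correction subtracted a loess curve (span 0.5) of each library's deviation from the mean of 6 libraries on log2 length.

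The genes, lists, motifs and named genes were chosen with earlier results of these data known. Named genes were the 10, their receptors, from each list at most 2 higher and 2 lower genes of smallest adjusted p, and the 3 nearest profiles. ESR1, PTPRC, NFKBIA, NFKBIB, NFKBIE, NFKB2, REL, RELB and TNIP1 were chosen after their values were seen. The same holds for NFKB1, RELA, NFKBIZ, BCL3, FOSL1, JUN, FOSB, JUND, FOS and JUNB. Alternatives were other pseudocounts, filters, scalings, weights, a replicate block and leaving out each library.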

Additional observations from a re-analysis of the deposited data

How the results depend on the processing

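IL1A, IL1B, IL6 and CSF2 kept their direction and their call in all 16 alternatives, with log2 differences of 0.63 to 1.11, 1.46 to 1.97, 0.57 to 1.08 and 1.62 to 2.27. The 8 rises and 1 fall among the 10 genes became 5 and 2 with TPM. No member fell with median-ratio scaling or quantile normalization (0 by limma, and 0 at an unadjusted p under 0.05). Signs turned for CXCL1 (-0.02 with TPM and -0.07 with the length correction), CXCL2 (-0.28, -0.06 and -0.28 with TPM, quantile normalization and the length correction), CXCL3 (-0.01 with the length correction) and LIF (0.12 with the length correction). The cause was not tested. Over all genes, 1716 were higher and 7453 lower with TPM, and 3068 lower at a mean of at least 5 FPKM, which tests fewer genes. The leaderless minus signal-peptide difference of 0.80 was 0.90 with the length correction and 0.76 to 0.86 without each library in turn. Without each library 8 or 9 of the 10 rose. The replicate number shared by the groups did not pair the libraries, with correlations of deviations of -0.077, 0.071 and 0.119 between same-numbered libraries. With it as a replicate block, 8 members rose, 1 fell and 8995 genes were called, against 8957 without it. Depth was not given, so the precision of genes near 1 FPKM, several receptors among them, rests on the spread of 3 libraries.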
